A study of Homo sapiens with 8 samples.

Results

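The 10 genes described here encode heat shock proteins and their co-chaperones: the HSP70 proteins HSPA8, HSPA1A and HSPA1B, the HSP110 protein HSPH1, the J-domain protein DNAJB1, the exchange factor BAG3, the inducible HSP90 protein HSP90AA1, the small heat shock protein HSPB1, and the mitochondrial chaperonin HSPD1 with its lid HSPE1. They were taken by name from the deposited table, in which 31461 genes are listed, and all 10 were found. Each of the 10 also passed the filter on low values, 1 FPKM or more in 2 or more libraries, which left 14635 genes for testing. FPKM is the number of fragments of a gene scaled to its transcript length and to the mapped total of its library. The proteins act in the cytosol and nucleus except for HSPD1 and HSPE1, which act in the mitochondrial matrix, so the genes are called the heat shock genes below rather than cytosolic ones.

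Expression was measured by RNA-seq in 8 bulk libraries of lung cancer lines, 2 libraries in each of 4 groups. The groups were A549 transfected with miR-29a-3p, A549 transfected with a control microRNA, H1299 transfected with miR-29a-3p, and H1299 transfected with the control microRNA. A549 was established from a lung adenocarcinoma and H1299 from a large cell carcinoma of the lung. Both carry the label WT for genotype, all 4 groups were transfected, and no untransfected library was analysed here. The study's stated purpose was to find genes that miR-29a-3p may target in lung cancer cells.

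Heat shock proteins keep other proteins folded. HSP70 proteins bind exposed hydrophobic stretches of a client in a cycle driven by ATP, which J-domain proteins such as DNAJB1 start and exchange factors such as HSPH1 and BAG3 end, and HSP90 takes over partly folded clients such as kinases and steroid receptors. Small heat shock proteins hold unfolded proteins without using ATP, and HSPD1 and HSPE1 form a closed folding chamber in mitochondria. HSPA8 and HSPD1 are made in unstressed cells, HSPA1A and HSPA1B mostly after stress, and the heat shock factor HSF1 switches on many of these genes through inverted repeats of the letters GAA in their promoters. Tumour cells are known for high levels of many of them.

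Shown here are the promoters that hold such repeats in runs of at least 3 units and the near-identical promoters of HSPA1A and HSPA1B. The transfected microRNA is shown as well. The motif counts below also cover promoters that are not shown, among them those of HSPB1 and DNAJB1, which hold such repeats too. All sequences come from RefSeq on GRCh38.p14. Each promoter runs 5′ to 3′ on the strand of its gene from 250 bases before the annotated start. The first group is the 3 promoters with at least 3 alternating GAA units in a row. Capitals mark every match to GAANNTTC or TTCNNGAA, the 2 ways in which a pair of units can lie, and overlapping matches are run together. HSPA8 lies at chr11:123062087-123062386 on the minus strand, HSP90AA1 at chr14:102086995-102087294 on the minus strand (the downstream of its 2 annotated starts), and HSPD1 at chr2:197499791-197500090 on the minus strand (also the downstream of 2 starts).
HSPA8: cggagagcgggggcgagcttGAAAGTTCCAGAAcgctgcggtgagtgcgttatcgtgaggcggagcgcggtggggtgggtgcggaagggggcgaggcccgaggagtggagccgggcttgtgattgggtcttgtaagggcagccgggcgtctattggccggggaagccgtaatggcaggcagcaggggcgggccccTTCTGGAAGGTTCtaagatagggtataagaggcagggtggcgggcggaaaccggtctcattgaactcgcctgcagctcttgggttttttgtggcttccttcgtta
HSP90AA1: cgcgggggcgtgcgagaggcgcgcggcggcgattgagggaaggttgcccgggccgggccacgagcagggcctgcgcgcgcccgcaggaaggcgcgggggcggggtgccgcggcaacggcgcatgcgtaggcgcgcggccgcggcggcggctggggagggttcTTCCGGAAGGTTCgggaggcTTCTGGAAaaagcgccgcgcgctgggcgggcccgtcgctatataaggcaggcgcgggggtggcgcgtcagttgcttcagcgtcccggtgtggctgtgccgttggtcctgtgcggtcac
HSPD1: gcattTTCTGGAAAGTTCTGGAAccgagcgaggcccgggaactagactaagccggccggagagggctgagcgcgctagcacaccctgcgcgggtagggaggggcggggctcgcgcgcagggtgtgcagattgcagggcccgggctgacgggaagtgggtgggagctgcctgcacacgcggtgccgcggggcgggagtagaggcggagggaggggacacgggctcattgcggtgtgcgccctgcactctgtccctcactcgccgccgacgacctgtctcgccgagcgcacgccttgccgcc

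HSPA1A lies at chr6:31815293-31815592 and HSPA1B at chr6:31827488-31827787, both on the plus strand, and each holds a single facing pair, again in capitals.
HSPA1A: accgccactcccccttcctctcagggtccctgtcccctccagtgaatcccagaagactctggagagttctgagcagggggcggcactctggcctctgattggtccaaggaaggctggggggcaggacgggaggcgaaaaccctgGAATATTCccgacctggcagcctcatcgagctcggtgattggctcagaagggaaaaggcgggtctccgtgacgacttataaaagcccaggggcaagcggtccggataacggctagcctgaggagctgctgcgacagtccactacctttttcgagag
HSPA1B: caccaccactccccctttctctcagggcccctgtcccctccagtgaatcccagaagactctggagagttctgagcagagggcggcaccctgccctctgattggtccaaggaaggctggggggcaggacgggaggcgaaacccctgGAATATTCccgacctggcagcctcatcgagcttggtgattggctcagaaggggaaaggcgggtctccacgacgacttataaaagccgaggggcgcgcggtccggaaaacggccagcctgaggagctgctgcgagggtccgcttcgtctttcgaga

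The mature miR-29a-3p has 22 bases and is encoded at chr7:130876748-130876769 on the minus strand. Its seed, bases 2 to 8, is in capitals.
miR-29a-3p: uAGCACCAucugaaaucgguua

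Library totals were estimated at 12221310 to 15614821 fragments, with 12021 to 12837 genes at 1 FPKM or more, and libraries of a group differed by a median of 0.079 to 0.088 in log2(FPKM + 1). The heat shock genes had from 125 estimated fragments (HSPA1A in an H1299-labelled control) to 27843 (HSP90AA1 in an A549-labelled miR-29a-3p library), so counting error is largest for HSPA1A. The line labels disagreed with the marker genes. CDKN2A, a cell cycle inhibitor that A549 lacks, stood at 23.8 and 24.8 FPKM in the A549-labelled controls, against 0.0513 and 0.112 FPKM in the H1299-labelled controls, and 8 A549 markers summed to 190 to 200 FPKM in the A549-labelled controls, against 1154 to 1181 FPKM in the H1299-labelled ones. Each line name below is therefore that of the label only. Fibroblast and endothelial markers summed to at most 3.5 FPKM in any library, and of the 4 leukocyte markers only CD68, a lysosomal protein, exceeded 1 FPKM.

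All of the heat shock genes but HSPD1 rose after miR-29a-3p in the H1299-labelled libraries, and none rose in the A549-labelled ones. In the H1299-labelled libraries 9 of the 10 were higher with an adjusted p under 0.05 (limma on log2(FPKM + 1), Benjamini-Hochberg over 14635 genes) and 0 were lower. Of all genes tested in that comparison 50.0% passed, 25.1% higher and 24.8% lower. In the A549-labelled libraries 0 were higher and 2 were lower, where 16.0% of all genes passed, 7.30% higher and 8.66% lower. The median log2 difference of the 10 was 0.76 in the H1299-labelled libraries and 0.00 in the A549-labelled ones, and the median of all genes tested was 0.00 in both. At an unadjusted p under 0.05 the counts of the 10 were the same, 9 higher and 0 lower with the H1299 label and 0 higher and 2 lower with the A549 label. By the libraries alone, 9 of 10 were higher in both miR-29a-3p libraries than in both controls with the H1299 label (38.5% of all genes, with 37.4% lower), and with the A549 label 2 were higher (29.8% of all genes) and 3 lower (29.2%).

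**Figure D1:**
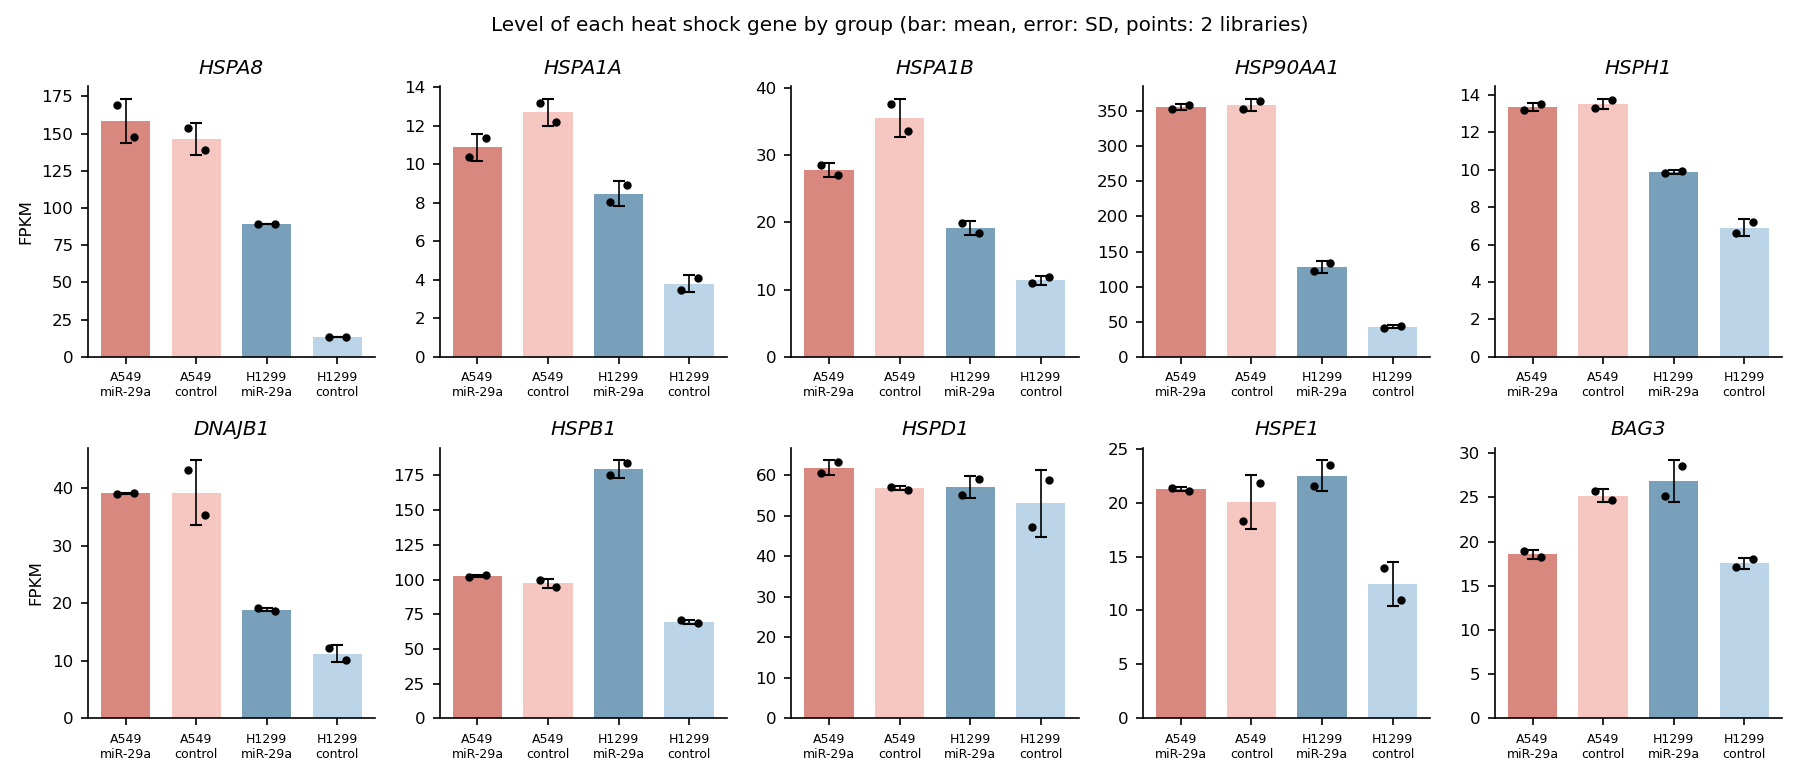
Level of each of the 10 heat shock genes in FPKM by group, with bars for the group mean, error bars for the SD of 2 libraries and points for the libraries. HSPA8 averaged 89.2 FPKM in the H1299-labelled miR-29a-3p libraries and 13.5 FPKM in the H1299-labelled controls, while the 2 A549-labelled groups overlapped at 159 and 147 FPKM.

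Summed over the 10 genes, expression was 810 ± 9.8 FPKM after miR-29a-3p and 806 ± 13 FPKM in controls with the A549 label (SD, n = 2 each). With the H1299 label it was 559 ± 20 FPKM after miR-29a-3p and 242 ± 7.7 FPKM in controls. The share of all summed FPKM was 0.215% and 0.227% in the H1299-labelled miR-29a-3p libraries, against 0.0976% and 0.105% in their controls, and it lay between 0.357% and 0.369% in the 4 A549-labelled libraries. HSPA8 and HSP90AA1 made up most of the sum with the A549 label. The 8 other genes summed to 342 ± 12 FPKM after miR-29a-3p and 186 ± 5.4 FPKM in controls with the H1299 label. With the A549 label they summed to 295 ± 1.3 FPKM after miR-29a-3p and 300 ± 11 FPKM in controls. In bulk libraries scaled to their own totals, a change in the share of cells that make an RNA and a change in its level per cell cannot be told apart.

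HSPA8 (ENSG00000109971, chromosome 11, 123057489 to 123063230, minus strand), the constitutive cytosolic HSP70, moved the most. Its level was 89.2 FPKM in both H1299-labelled miR-29a-3p libraries, against 13.4 and 13.6 FPKM in the H1299-labelled controls. The miR-29a-3p libraries stood far above the controls, and the ratio of means was 6.61. The log2 difference of 2.64 ± 0.077 (SE, 95% interval 2.45 to 2.82, limma adjusted p = 9.8e-06) ranked 2 from the top among 14635 genes. In the A549-labelled libraries HSPA8 had 169 and 148 FPKM after miR-29a-3p, against 154 and 139 FPKM in controls. These libraries overlapped, and the log2 difference of 0.11 had a 95% interval of -0.07 to 0.30 (adjusted p = 0.38).

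HSPA1A and HSPA1B encode the main stress-inducible HSP70, and their proteins are nearly identical. They lie on chromosome 6 at 31815464 to 31817946 (ENSG00000204389) and 31827735 to 31830255 (ENSG00000204388), both on the plus strand, and HSPA1B begins 9789 bases after the end of HSPA1A. Of the 75-base words in the longest HSPA1A transcript 71.2% were also found in HSPA1B, and 67.1% of its 150-base words were found in another gene, so fragments can be split between them and each value is uncertain. HSPA1A had 8.03 and 8.93 FPKM in the H1299-labelled miR-29a-3p libraries, against 3.49 and 4.12 FPKM in the controls. HSPA1B had 19.9 and 18.4 FPKM after miR-29a-3p, against 10.9 and 11.8 FPKM in the controls. Both genes rose without overlap, HSPA1A by 0.98 ± 0.09 (SE, adjusted p = 0.00025) and HSPA1B by 0.71 ± 0.076 (SE, adjusted p = 0.00046) on the log2 scale.

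Both inducible HSP70 genes were lower in each A549-labelled miR-29a-3p library than in each control. HSPA1A had 10.4 and 11.4 FPKM after miR-29a-3p, against 13.2 and 12.2 FPKM in controls, a log2 difference of -0.21 (95% interval -0.43 to 0.01, adjusted p = 0.17). HSPA1B had 28.5 and 27.0 FPKM after miR-29a-3p, against 37.5 and 33.5 FPKM in controls, a log2 difference of -0.34 ± 0.076 (SE, adjusted p = 0.029). Only the fall of HSPA1B passed the test. With the 2 genes summed before the fit the log2 difference was -0.31 (adjusted p = 0.028). The HSPA1B call was lost without A549 miR-29a-3p 1 (adjusted p = 0.082), A549 miR-29a-3p 2 (adjusted p = 0.12) or A549 control 1 (adjusted p = 0.11), and with no filter on low values, with the line fitted alone and with the replicate number as a block (adjusted p = 0.063, 0.057 and 0.063).

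The co-chaperones of HSP70 also rose in the H1299-labelled libraries, with smaller log2 differences than HSPA8. DNAJB1 (ENSG00000132002, chromosome 19, 14514770 to 14529770, minus strand), which hands clients to HSP70 and starts its cycle, had 19.1 and 18.7 FPKM after miR-29a-3p, against 12.3 and 10.2 FPKM in controls. It rose by 0.71 ± 0.11 on the log2 scale (SE, adjusted p = 0.0024). HSPH1 (ENSG00000120694, chromosome 13, 31134974 to 31162388, minus strand), an HSP110 protein that releases nucleotide from HSP70, had 9.82 and 9.95 FPKM after miR-29a-3p, against 6.59 and 7.22 FPKM in controls. Its rise of 0.46 ± 0.055 (SE, adjusted p = 0.00073) was the smallest among the 9 that passed. With the A549 label HSPH1 had 13.2 and 13.5 FPKM after miR-29a-3p, against 13.3 and 13.7 FPKM in controls, which overlapped (adjusted p = 0.89). DNAJB1 had 39.0 and 39.2 FPKM after miR-29a-3p, against 43.2 and 35.3 FPKM in A549-labelled controls, so its controls lay on either side (adjusted p = 0.99). DNAJB1 overlaps TECR, a fatty acid enzyme gene on the opposite strand, over 12686 bases, and the strand setting of the counting is not given in the sources used here. TECR itself lay between 3.437 and 3.853 FPKM in the H1299-labelled libraries and between 7.642 and 8.783 FPKM in the A549-labelled ones. The part of this overlap in the DNAJB1 results was not tested.

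BAG3 (ENSG00000151929, chromosome 10, 119651370 to 119677819, plus strand) couples HSP70 to small heat shock proteins and to autophagy, and it passed the test in opposite directions under the 2 labels. In the H1299-labelled libraries it had 25.2 and 28.5 FPKM after miR-29a-3p, against 17.1 and 18.0 FPKM in controls, a rise of 0.58 ± 0.068 on the log2 scale (SE, adjusted p = 0.00065). In the A549-labelled libraries it had 18.9 and 18.2 FPKM after miR-29a-3p, against 25.7 and 24.7 FPKM in controls, a log2 difference of -0.42 ± 0.068 (SE, adjusted p = 0.011). The groups did not overlap in either case. The A549-labelled call was lost without A549 miR-29a-3p 2 or A549 control 1 (adjusted p = 0.058 in both), while the H1299-labelled call held under each of the 16 alternatives (adjusted p = 0.00041 to 0.0059).

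HSP90AA1 (ENSG00000080824, chromosome 14, 102080738 to 102139699, minus strand) encodes the stress-inducible cytosolic HSP90. It had 122 and 134 FPKM in the H1299-labelled miR-29a-3p libraries, against 41.1 and 44.2 FPKM in the controls, a ratio of means of 3.0 and a log2 difference of 1.56 ± 0.059 (SE, adjusted p = 1.4e-05). Among all genes tested that difference ranked 97 from the top. In the A549-labelled libraries it was the most abundant of the 10 genes, with 353 and 359 FPKM after miR-29a-3p, against 353 and 365 FPKM in controls. These libraries overlapped, and the 95% interval of the log2 difference ran from -0.15 to 0.13.

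HSPB1 (ENSG00000106211, chromosome 7, 76302544 to 76304295, plus strand) encodes the small heat shock protein HSP27. HSPB1 differed from the genes above, BAG3 apart, in where it was high. It had 175 and 184 FPKM in the H1299-labelled miR-29a-3p libraries, against 70.6 and 68.4 FPKM in their controls. The miR-29a-3p libraries stood above every A549-labelled library and the controls below every one. The log2 difference was 1.36 ± 0.044 (SE, adjusted p = 9.8e-06) and ranked 177 from the top. In the A549-labelled libraries it had 102 and 103 FPKM after miR-29a-3p, against 99.6 and 94.8 FPKM in controls. They did not overlap, but the log2 difference of 0.07 (95% interval -0.03 to 0.18) did not pass (adjusted p = 0.31). BAG3 also had its highest group mean, 26.8 FPKM, in the H1299-labelled miR-29a-3p libraries. Those BAG3 values overlapped the A549-labelled controls, at 25.7 and 24.7 FPKM.

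Of the 2 mitochondrial genes HSPE1 passed the test with the H1299 label and HSPD1 did not, and a difference between them was not tested. HSPD1 (ENSG00000144381, chromosome 2, 197486581 to 197516737, minus strand), the chaperonin HSP60, had 55.1 and 59.0 FPKM in the H1299-labelled miR-29a-3p libraries, against 47.2 and 58.8 FPKM in the controls. The libraries overlapped, and the log2 difference was 0.11 (95% interval -0.13 to 0.35, adjusted p = 0.39). It was -0.04 without H1299 control 1 (adjusted p = 0.60) and 0.27 without H1299 control 2 (adjusted p = 0.020). In the A549-labelled libraries HSPD1 had 60.6 and 63.1 FPKM after miR-29a-3p, against 57.1 and 56.4 FPKM in controls (log2 difference 0.12, 95% interval -0.12 to 0.36, adjusted p = 0.46). HSPE1 (ENSG00000115541, chromosome 2, 197499994 to 197503457, plus strand), the lid HSP10, had 21.5 and 23.5 FPKM in the H1299-labelled miR-29a-3p libraries, against 13.9 and 11.0 FPKM in the controls. It rose by 0.81 ± 0.12 on the log2 scale (SE, adjusted p = 0.0021). With the A549 label HSPE1 had 21.4 and 21.1 FPKM after miR-29a-3p, against 18.3 and 21.8 FPKM in controls, which overlapped (adjusted p = 0.69).

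From the downstream of the 2 RefSeq starts of HSPD1, 538 bases separate it from the RefSeq start of HSPE1 on the opposite strand. In the gene spans given above HSPE1 lies wholly inside HSPD1, an overlap of 3464 bases. As the strand setting is not given, fragments of the shared stretch cannot be told apart where exons of both genes lie on it, and the part of that in either result was not tested. HSPE1-MOB4, a readthrough of HSPE1 into the next gene, takes in HSPE1 exons on the same strand. It had 5.57 and 7.20 FPKM in the H1299-labelled miR-29a-3p libraries, against 11.3 and 7.27 FPKM in the controls (log2 difference -0.46, adjusted p = 0.096). Fragments of shared HSPE1 exons can be assigned to either row, and the part of that in the HSPE1 result was not tested.

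**Figure D2:**
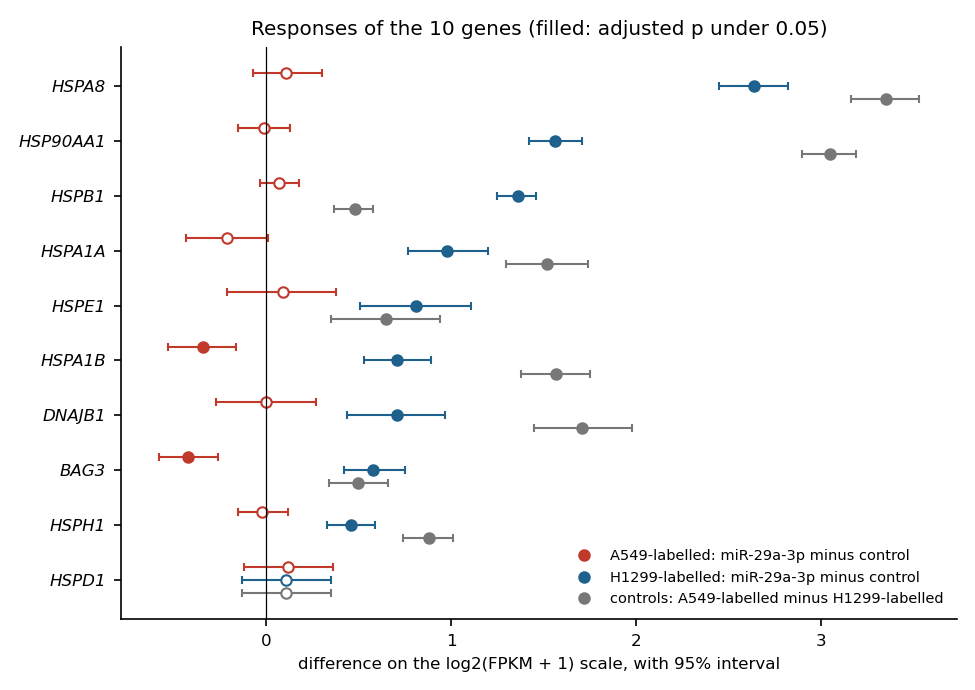
Log2(FPKM + 1) difference of each heat shock gene with its 95% interval for miR-29a-3p minus control with the A549 label, the same with the H1299 label, and A549-labelled minus H1299-labelled controls, filled where the limma adjusted p is under 0.05. All H1299-labelled differences but that of HSPD1 (0.11) lie right of 0, from 0.46 for HSPH1 to 2.64 for HSPA8, and BAG3 (-0.42) and HSPA1B (-0.34) lie left of 0 with the A549 label.

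The difference between the responses was tested directly. For 9 of the 10 genes the A549-labelled response was lower than the H1299-labelled one with an adjusted p under 0.05, and for 0 it was higher (9 and 0 also at an unadjusted p under 0.05). Over all genes tested 37.3% passed, 18.1% higher and 19.2% lower. HSPA8 had the widest difference, at -2.53 ± 0.11 (SE, adjusted p = 6.2e-05), 12 from the lowest of all genes. HSP90AA1 followed at -1.57 ± 0.084 (SE, adjusted p = 0.00011) and HSPB1 at -1.28 ± 0.062 (SE, adjusted p = 8.7e-05). For HSPD1 the difference was 0.01 (95% interval -0.33 to 0.35, adjusted p = 0.97). HSPE1, at -0.72 ± 0.17 (SE, adjusted p = 0.019), lost its call without A549 miR-29a-3p 1, A549 miR-29a-3p 2, A549 control 2 or H1299 miR-29a-3p 2 (adjusted p = 0.053, 0.056, 0.055 and 0.062). When low genes were kept in the fit it also missed the threshold (adjusted p = 0.050), and 8 of the 10 genes passed.

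Libraries transfected with the control microRNA differed widely between the lines. The A549-labelled controls were higher than the H1299-labelled controls for 9 of 10 genes and lower for 0 (limma, the same at an unadjusted p under 0.05), where 74.8% of all genes passed, 45.0% higher and 29.8% lower. Rescaling the libraries by their median ratios gave 5538 genes higher and 5311 lower, against 6586 and 4355 without it. By libraries alone 9 of 10 were higher without overlap (51.8% of all genes, with 35.4% lower). HSPA8 averaged 147 ± 11 FPKM in the A549-labelled controls and 13.5 ± 0.092 FPKM in the H1299-labelled ones (SD, n = 2 each), a log2 difference of 3.35 ± 0.077 (SE, adjusted p = 2.1e-07). HSP90AA1 averaged 359 ± 8.4 and 42.6 ± 2.2 FPKM in A549-labelled and H1299-labelled controls, a difference of 3.05 ± 0.059 (SE, adjusted p = 1.2e-07). HSPA1A, HSPA1B and DNAJB1 were 3.35, 3.14 and 3.49 times as high in the A549-labelled controls, HSPH1 1.95, HSPE1 1.61, BAG3 1.44 and HSPB1 1.40 times. HSPD1 averaged 56.8 ± 0.5 FPKM in the A549-labelled controls and 53.0 ± 8.3 FPKM in the H1299-labelled ones, which overlapped (adjusted p = 0.37). The median of the 10 was 1.20, against 0.17 for all genes, and the rescaling moved the all-gene median by -0.16 and kept the 9 calls. This comparison, the H1299-labelled response and the difference of responses share the H1299-labelled control libraries, so they are not independent of each other.

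Within a group the genes differed widely in level. In the A549-labelled groups the order from the top was HSP90AA1, HSPA8, HSPB1, HSPD1 and DNAJB1, each separated from the next without overlap after miR-29a-3p, and HSPA1A was lowest at 10.9 and 12.7 FPKM in the miR-29a-3p and control means. In the A549-labelled controls DNAJB1 and HSPA1B overlapped. In the H1299-labelled miR-29a-3p libraries HSPB1 came first at 179 ± 5.8 FPKM, ahead of HSP90AA1 at 128 ± 8.6 FPKM and HSPA8 at 89.2 ± 0.022 FPKM (SD, n = 2 each). In the H1299-labelled controls the order began with HSPB1 at 69.5 ± 1.5, HSPD1 at 53.0 ± 8.3 and HSP90AA1 at 42.6 ± 2.2 FPKM. HSPA8 ranked 5 there, and it, HSPE1, HSPA1B and DNAJB1 lay from 13.5 down to 11.2 FPKM with neighbours overlapping. HSPA1A was lowest in all 4 groups.

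Across the 8 libraries the members' log2 levels followed each other to unequal degrees, given here as a description over libraries that share 4 groups and their line difference. Pearson's r over the 45 pairs ran from 0.13 to 1.0 with a median of 0.68, and 15 pairs exceeded 0.9. HSPA8 had an r of 0.98 with HSPA1A, 0.96 with HSP90AA1 and with HSPH1, 0.93 with HSPA1B, 0.92 with DNAJB1 and 0.88 with HSPE1. Its r was 0.59 with HSPD1, 0.53 with HSPB1 and 0.51 with BAG3. Among 6948 protein-coding genes that reached 5 FPKM in a group mean, the 5 most like HSPA8 were TAP2 (r = 0.999), TWF2 (r = 0.997), LDB1, CENPX and PLCB3 (r = 0.996 each), none of them a chaperone. TAP2, a subunit of the peptide transporter of antigen presentation, had 9.07 and 9.23 FPKM in the H1299-labelled miR-29a-3p libraries, against 5.0 and 4.86 FPKM in controls. TWF2, an actin-binding protein, had 30.9 and 30.2 FPKM, against 12.7 and 13.1 FPKM in controls.

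Many of these genes have processed pseudogenes, copies made from spliced RNA, that can take fragments from them. The table lists 41 such rows for the 10 genes, of which 8 passed the filter. The 12 HSPA8 pseudogenes summed to 1.14% to 2.80% of the FPKM of HSPA8 over the 8 libraries, the 4 HSP90AA rows to 8.02% to 10.4% of HSP90AA1, the 2 HSPB1 rows to 5.68% to 12.2%, the 10 HSPD1 rows to 15.8% to 22.7%, and the 12 HSPE1 rows to 29.2% to 50.8%. None is listed for HSPA1A, HSPA1B, HSPH1 or BAG3. Exact 75-base words shared with another gene made up 1.8% of the longest HSPA8 transcript, 6.1% of HSP90AA1, 7.9% of HSPB1, 10.1% of HSPD1 and 22.3% of HSPE1, and 0.0% of HSPH1, DNAJB1 and BAG3. For HSPE1 the gene that shared most was no pseudogene but the readthrough HSPE1-MOB4, with 13.6% of the words.

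The pseudogenes HSP90AA2P and HSPB1P1 rose along with their source genes with the H1299 label. HSP90AA2P, which falls outside the naming rule and was singled out after its values were seen, had 12.1 FPKM in both H1299-labelled miR-29a-3p libraries, against 3.65 and 3.39 FPKM in controls, a rise of 1.54 ± 0.056 on the log2 scale (SE, adjusted p = 1.2e-05), beside 1.56 for HSP90AA1. HSPB1P1 had 20.6 and 16.0 FPKM after miR-29a-3p, against 8.51 and 7.67 FPKM in the H1299-labelled controls, a rise of 1.08 ± 0.12 (SE, adjusted p = 0.0005), beside 1.36 for HSPB1. HSPD1P1 had 9.14 and 8.13 FPKM, against 6.98 and 7.35 FPKM in controls (log2 difference 0.24, adjusted p = 0.18). Whether these rows carry RNA of their own or fragments of the source gene was not tested. Pseudogene rows named as a gene followed by P and a number were added to that gene before the fit, with HSPA1A and HSPA1B summed. This left 8 of 9 rows higher with the H1299 label. The HSP90AA rows are named otherwise and were added to HSP90AA1 only in a separate setting that was not planned beforehand. There HSP90AA1 rose by 1.58 with the H1299 label (limma adjusted p = 1.1e-05).

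**Figure D3:**
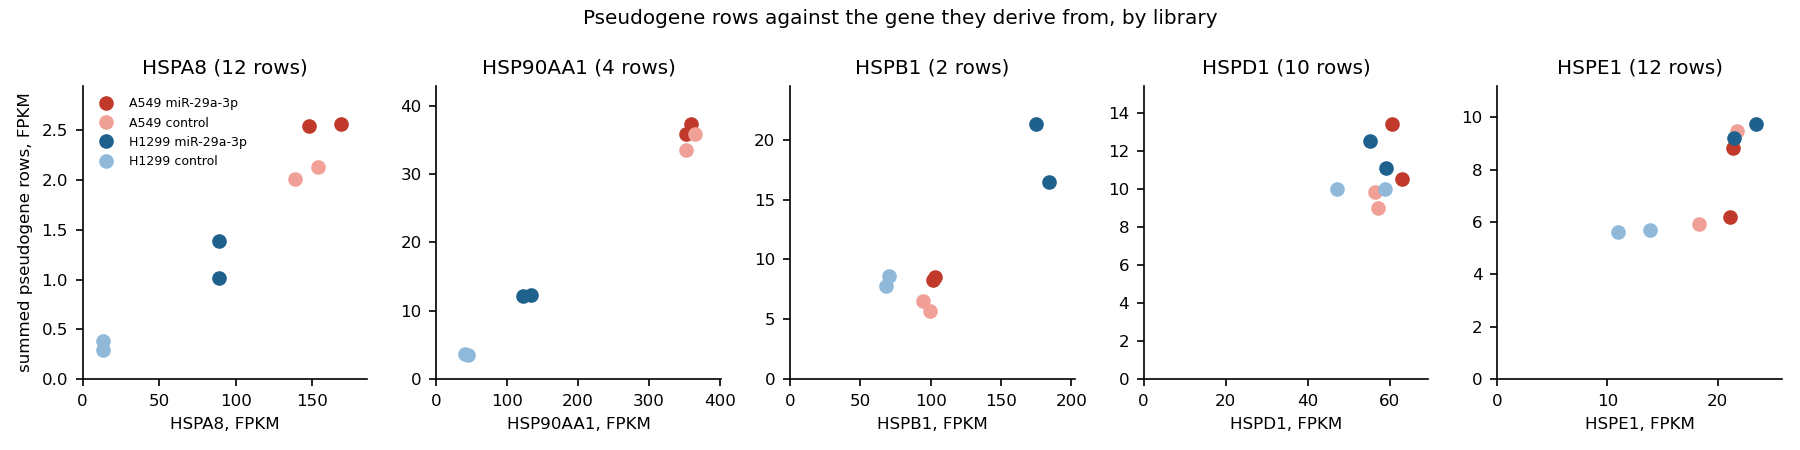
Summed FPKM of the pseudogene rows against the FPKM of their source gene, a point per library, for the 5 genes with more than 1 row. For HSPA8 and HSP90AA1 both values are highest in the A549-labelled libraries and lowest in the H1299-labelled controls, while the HSPE1 rows reach 50.8% of HSPE1 and the HSPD1 rows spread from 9.0 to 13.4 FPKM.

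The promoters, of which some are printed above, bear on what the genes share. GAANNTTC, a facing pair of GAA units that reads the same on both strands, was found in a promoter window (250 bases before to 50 after an annotated start) of 7 of the 10 genes, against 8.21% of the 27305 genes with a RefSeq window. The back-to-back pair TTCNNGAA was found in 3 of 10, against 9.46% of all genes. A run of 3 alternating units, in which GAANNTTC and TTCNNGAA share 3 letters, on either strand, occurred in HSPA8, HSP90AA1 and HSPD1, against 0.61% of all genes. HSPA8 had such a run at 2 places, with facing pairs whose first bases lie at -230 and -50 from the start. CCAAT on either strand was found in 5 of 10 genes, against 39.72% of all genes, and TATAAA on either strand in HSPA1A and HSPA1B, against 13.99%. A match is a description of letters, and binding at these sites was not measured.

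Genes that rose with the H1299 label were found with and without a pair. HSPD1 holds the longest run, 18 bases at chr2:197500068-197500085, and its expression did not pass the test in either line. HSPE1 rose, and its own window holds no pair. The same run lies outside that window, with its nearest base at -294 from the RefSeq start of HSPE1. In GENCODE the span of HSPE1 begins earlier, at 197499994, so the run lies inside that span. BAG3 and HSPH1 rose with the H1299 label and hold no pair in their windows. HSPB1 and DNAJB1 hold facing pairs and rose by 1.36 and 0.71.

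**Figure D4:**
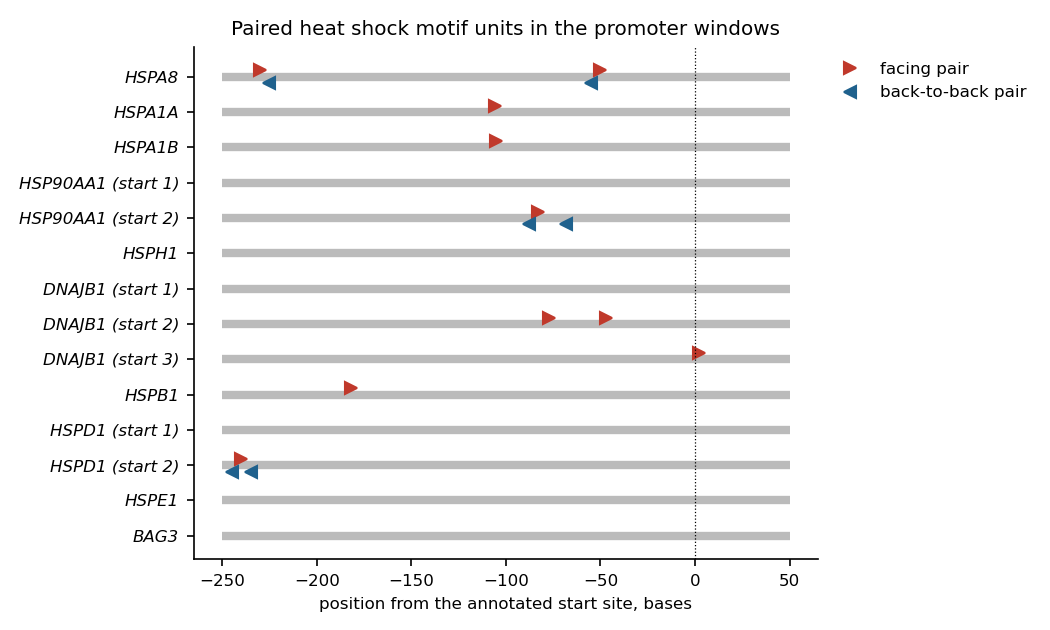
Position of facing (GAANNTTC) and back-to-back (TTCNNGAA) pairs in the promoter windows of the heat shock genes, in bases from each annotated start, with every annotated start drawn on its own row. HSPA8 has 4 matches in 2 places, HSP90AA1 and HSPD1 have 3 matches at 1 of their starts, and BAG3, HSPE1 and HSPH1 have none.

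None of the 10 genes holds a match to the miR-29 seed of 7 bases or more in its longest annotated 3′ UTR. Of the 11632 tested genes with a 3′ UTR, 16.4% do. HSPH1 holds 1 match of 6 bases, which 34.2% of those genes have. The 3′ UTRs of the 10 were short, from 122 bases in HSPB1 to 2344 bases in HSPH1, and 9 were shorter than the median of 1356 bases. HSPA1B and BAG3, the genes that fell with the A549 label, have 3′ UTRs of 379 and 537 bases without a match.

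Other chaperones moved in both directions after miR-29a-3p in the H1299-labelled libraries. The all-gene shares that follow are to be set beside every list below, of chaperones, immediate early genes and markers. With the H1299 label 25.1% of all genes tested were higher and 24.8% lower. They were 7.30% higher and 8.66% lower with the A549 label. Of 17 other HSP70 family members and exchange factors 6 rose and 6 fell (median -0.05), and with the A549 label 0 rose and 0 fell by limma (1 and 0 at an unadjusted p under 0.05). HSPA2, an HSP70 abundant in testis, had 7.72 and 7.94 FPKM in the H1299-labelled miR-29a-3p libraries, against 2.07 and 0.361 FPKM in the controls (adjusted p = 0.0049). HSPA12A and HSPA4L rose by 1.67 and 0.81 on the log2 scale. HSPA9, the mitochondrial HSP70 that pulls proteins into the matrix, had 80.7 and 77.7 FPKM after miR-29a-3p, against 127 and 129 FPKM in controls (adjusted p = 0.0002), and so fell where HSPA8 rose. HSPA13 and HSPBP1, an exchange factor, had log2 differences of -1.15 and -0.37. Under the 5 FPKM used for naming, 2 further HSP70 genes moved in opposite directions with the H1299 label. HSPA6 had 0.407 and 0.568 FPKM after miR-29a-3p, against 1.97 and 2.21 FPKM in controls (log2 difference -1.06, adjusted p = 0.00022). HSPA1L rose by 0.54 (adjusted p = 0.014).

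Of 18 tested J-domain proteins besides DNAJB1, 6 rose and 3 fell with the H1299 label (median 0.14), a share near that of all genes, and 0 rose and 0 fell with the A549 label by limma (3 higher and 4 lower at an unadjusted p under 0.05). DNAJA1, a cytosolic partner of HSPA8, had 126 and 130 FPKM after miR-29a-3p, against 51.2 and 53.5 FPKM in controls, a rise of 1.27 ± 0.043 on the log2 scale (SE, adjusted p = 1e-05). DNAJB4 and DNAJA2 rose by 0.93 and 0.23, and DNAJB2, DNAJC13 and DNAJC7 had log2 differences of -1.03, -0.34 and -0.31.

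Of 21 genes of the HSP90 list, which holds its paralogues and co-chaperones, 8 rose and 1 fell with the H1299 label (median 0.14). HSP90AB1, the constitutive cytosolic HSP90, had 315 and 314 FPKM after miR-29a-3p, against 184 FPKM in both controls, a rise of 0.77 ± 0.036 (SE, adjusted p = 2.3e-05). AHSA1, which speeds the HSP90 ATPase, and FKBP4, an immunophilin, rose by 0.85 and 0.68. PPID, another immunophilin, fell by 0.27. With the A549 label 1 of the 21 rose and 5 fell (median -0.07). TOMM34, which guides proteins to mitochondria, had 63.2 and 61.1 FPKM after miR-29a-3p, against 52.9 and 54.9 FPKM in controls. CDC37, the kinase co-chaperone, had 26.0 and 24.3 FPKM, against 31.4 and 33.0 FPKM in controls (adjusted p = 0.039).

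Among 14 subunits of the cytosolic chaperonin and prefoldin 4 rose and 2 fell with the H1299 label (median 0.09), again near the share of all genes, and 0 rose and 1 fell with the A549 label by limma (0 and 4 at an unadjusted p under 0.05). CCT3 rose by 0.63 and PFDN2 fell by 1.12 with the H1299 label. Only 2 of 9 other small heat shock proteins were tested, of which HSPB11, known as a ciliary transport protein, rose by 0.87 and HSPB8, a partner of BAG3, fell by 0.62. Of 8 mitochondrial proteases and disaggregases 0 rose and 3 fell with the H1299 label by limma (1 and 4 at an unadjusted p under 0.05, median -0.15), and 1 rose and 2 fell with the A549 label. The matrix protease LONP1 had 14.7 and 14.6 FPKM in the H1299-labelled miR-29a-3p libraries, against 36.1 and 36.5 FPKM in controls.

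HSF1, the main activator of heat shock genes, had 5.08 and 4.22 FPKM in the H1299-labelled miR-29a-3p libraries, against 6.38 and 6.32 FPKM in controls. Its RNA was thus lower there (log2 difference -0.38, adjusted p = 0.032), and with the A549 label the log2 difference was 0.02 (adjusted p = 0.94). HSBP1, a small protein that binds heat shock factors, rose by 0.27 with the H1299 label (adjusted p = 0.030). Of the 4 genes of this list 2 rose and 1 fell with the H1299 label, and 1 rose and 0 fell with the A549 label (limma, 1 and 1 at an unadjusted p under 0.05). The heat shock factor HSF4, under the 5 FPKM used for naming, rose with both labels. Its log2 difference was 0.66 with the H1299 label (adjusted p = 0.0005) and 0.30 with the A549 label (adjusted p = 0.04). The activity of HSF1 is set largely on its protein, which these data do not measure.

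Chaperones of the endoplasmic reticulum, listed for comparison, moved the other way. Of 15 tested, 0 rose and 15 fell with the H1299 label by limma (the same at an unadjusted p under 0.05, median -0.61), and 3 rose and 3 fell with the A549 label (median -0.03). HSPA5, the HSP70 of that compartment, had 276 and 277 FPKM in the H1299-labelled miR-29a-3p libraries, against 726 and 737 FPKM in controls, and HSP90B1, its HSP90, had 120 FPKM in both, against 248 and 245 FPKM in controls. The H1299-labelled control levels of these 2 genes were thus the highest of the 4 groups, whereas those of HSPA8 and HSP90AB1 were the lowest. Immediate early genes, which also answer stress and handling, split, with 3 rising and 3 falling of 8 with the H1299 label (median 0.03) and 4 rising and 1 falling with the A549 label (median 0.42).

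**Figure D5:**
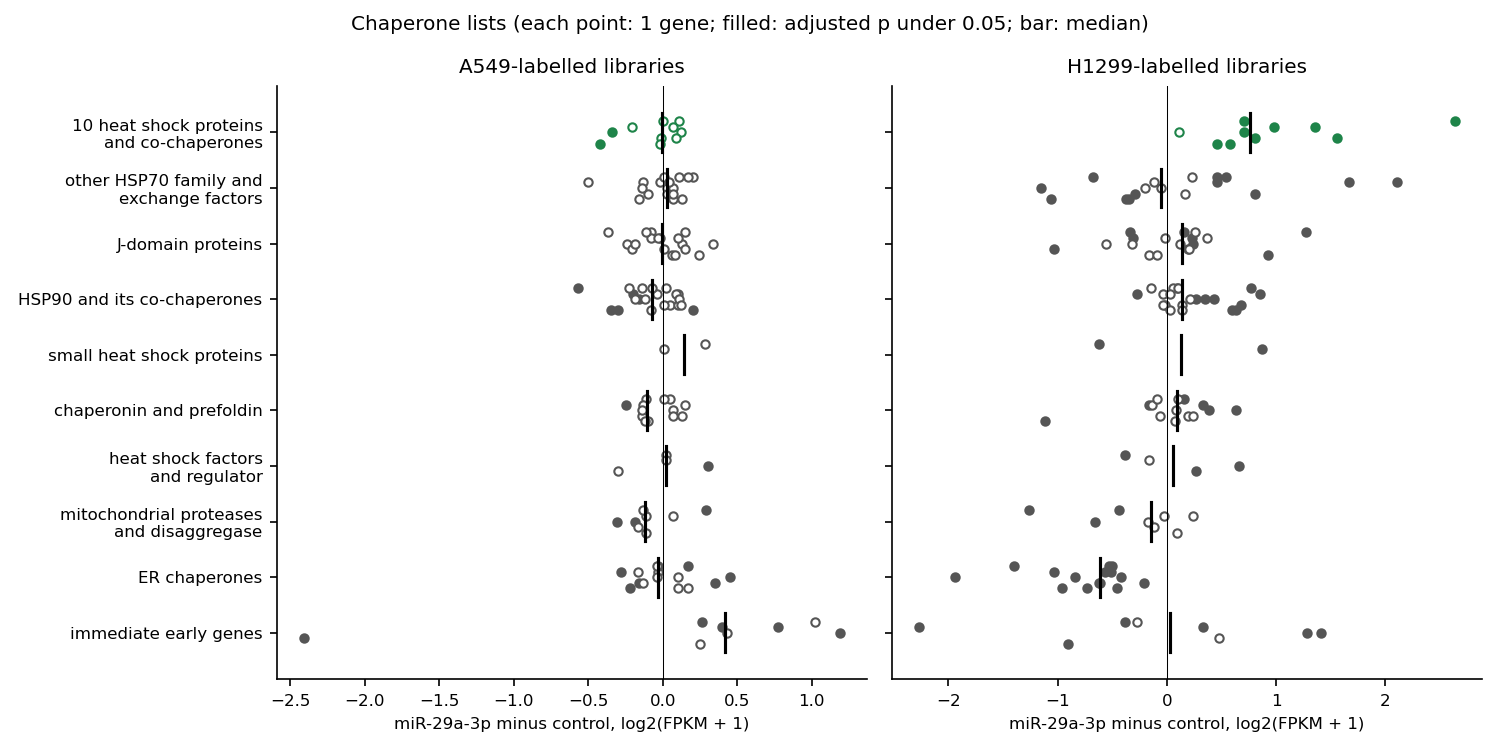
Log2(FPKM + 1) difference of every tested gene of each chaperone list, miR-29a-3p minus control, with the A549 label on the left and the H1299 label on the right, filled where the limma adjusted p is under 0.05, with bars for list medians. The heat shock genes have a median of 0.76 with the H1299 label, the endoplasmic reticulum chaperones one of -0.61, and other lists lie between -0.15 and 0.14.

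Other measures moved with the H1299-labelled result. The share of summed FPKM from mitochondrially encoded mRNA was 18.4% and 17.7% in the H1299-labelled miR-29a-3p libraries, against 15.1% in both controls, and with the A549 label it was 11.0% in both miR-29a-3p libraries, against 11.7% and 12.1% in controls. The 8 A549 markers summed to 2516 to 2580 FPKM after miR-29a-3p, against 1154 to 1181 FPKM in H1299-labelled controls. Of the 7 tested 5 rose, where 25.1% of all genes did. ALDH1A1 (mean 1441 against 797 FPKM) and ALDH3A1 (594 against 38.0 FPKM) carried most of the sum's rise. AKR1C2 did not rise (105 against 112 FPKM). The 2 H1299 markers summed to 148 to 213 FPKM, against 92.3 to 136 FPKM, carried by VIM, an intermediate filament gene (log2 difference 0.66, adjusted p = 0.043). The 4 fibroblast markers summed to 3.42 to 3.5 FPKM, against 2.21 to 2.31 FPKM, and of the 2 tested LUM, a matrix proteoglycan, rose by 0.50 (adjusted p = 0.001). The leukocyte markers summed to 23.5 to 24.9 FPKM, against 8.09 to 8.14 FPKM, carried by CD68, while the other 3 stayed under 1 FPKM in all 8 libraries. The part of these shifts in the heat shock results was not tested.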

How the data were processed

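RNA-seq values of 8 libraries, 2 in each of 4 groups, were used as deposited. Per the file headers, the authors deposited FPKM for each gene in each library, and the submitters' processing notes name StringTie and GRCh38. Versions, aligner, annotation release and strand setting were not given in the sources. There are 27756 genes under A549 and 28609 under H1299, and genes present under 1 line were set to 0 in the other.

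The 14635 genes that reached 1 FPKM in 2 or more libraries were tested on log2(FPKM + 1) with limma (3.58.1, R 4.3.3), fitting a mean per group, a trended variance, residual degrees of freedom of 4 and prior ones of 2.36. Fold changes on that scale are too small for genes of low FPKM. Calls were made where the p adjusted over these genes by Benjamini-Hochberg was under 0.05, and each adjusted p of a gene comes from that fit unless another is named. The test was first tried on simulated data. All groups there were drawn from the A549-labelled control means, with some genes changed in the A549-labelled miR-29a-3p group only. As that setting held no line difference and no H1299-labelled response, it does not bear on those calls. A count test was planned in case the table held counts, and was not run because it holds FPKM. Depth was estimated from the FPKM value of 1 fragment among genes under 0.2 FPKM. Since 38.2% to 42.1% of values were whole fragments to within 0.02, the totals are approximate and no read counts were recovered.

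Libraries are numbered in the labels, which name no separate cultures. The p-values therefore reflect spread among libraries, possibly technical. Libraries of a group differed by more than sampling noise (chi-square per degree of freedom 3.09 to 3.82 over 2291 to 2317 genes) and all were kept.

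GENCODE 29 gave positions, transcripts and 3′ UTRs, and 31105 of 31461 identifiers matched. RefSeq gave promoters (14 windows for the 10 genes) and the microRNA.

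The 10 genes, the lists of other chaperones and the markers were chosen with earlier results of these data known, including the rise of HSPA8 and the fall of endoplasmic reticulum chaperones with the H1299 label, so they are not independent support. The naming rule took all 10 genes, the 3 most abundant pseudogene or readthrough rows that carry a member's name, and, per list and line, up to 3 called genes with the largest rise and 3 with the largest fall, at 5 FPKM or more in a group. HSPA6, HSPA1L and HSF4, which do not reach that level, were named outside the rule with their values known. The 5 genes most like HSPA8 were those with the highest Pearson r over the 8 libraries. Alternatives were another pseudocount (0.1), other filters, rescaled libraries, the line fitted alone, the replicate number as a block, each library left out, and pseudogene rows added.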

Additional observations from a re-analysis of the deposited data

Results flagged for a closer look

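The response to miR-29a-3p differed between the lines, by a test of the difference itself, for 9 of the 10 heat shock genes. As the A549-labelled response minus the H1299-labelled one on the log2(FPKM + 1) scale, the difference was -2.53 for HSPA8, -1.57 for HSP90AA1, -1.28 for HSPB1, -1.19 for HSPA1A, -1.05 for HSPA1B, -1.01 for BAG3, -0.72 for HSPE1, -0.70 for DNAJB1 and -0.48 for HSPH1, each with a limma adjusted p under 0.05. Since 37.3% of all genes tested differed in this way, a difference as such is common in these libraries. That of HSPA8 ranked 12 from the lowest of 14635. The genes were chosen with the rise of HSPA8 under the H1299 label known, so this rank is not independent support. With 2 libraries a group no single library could be tested as standing apart.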

How the results depend on the processing

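Over 16 alternative settings, 604 values for the 10 genes stayed on their side of the threshold, 13 lost a call, 3 gained one and 0 called values changed sign. Values that did not pass changed sign in some settings for HSP90AA1, HSPH1, DNAJB1 and HSPE1 with the A549 label (-0.14 to 0.14 for DNAJB1, -0.04 to 0.21 for HSPE1), and for HSPD1 with the H1299 label (-0.04 to 0.27), in the difference (-0.15 to 0.17) and in the controls (-0.11 to 0.26). The 2 A549-labelled calls were the least stable: 1 was left with no filter on low values, with the line fitted alone and with the replicate number as a block, and 0 to 2 when a library was left out. The block changed no other count (9 with the H1299 label, 9 for the difference of responses and 9 for the controls). The difference between libraries 1 and 2 of a group, taken for each gene, was also correlated between groups. The r was 0.02 for miR-29a-3p with control under the A549 label and -0.01 under the H1299 label. Between the controls of the 2 labels it was -0.04. No shift shared by same-numbered libraries was seen, which does not show whether the libraries were paired. With no filter on low values the difference of responses had 8 calls, without HSPE1. Leaving out a library gave 9 to 10 calls with the H1299 label, 8 to 9 for the difference of responses and 9 to 10 for the controls. Over all genes, the A549-labelled count of 2336 fell to 1365 with the line fitted alone, to 1261 under the replicate block and to 1045 to 1196 without any of the 4 A549-labelled libraries. Requiring a mean of 5 FPKM left 6085 genes to test and gave 3773 calls with the H1299 label, 2984 for the difference and 4923 for the controls. DESeq2 was not run, because the table holds no counts. Depth limits HSPA1A and HSPE1 most.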
